A study of Mus musculus with 6 samples.

Results

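The transcripts described here encode 10 extracellular proteins of the elastic fibre and of the adhesive matrix, namely Fn1, Tnc, Postn, Eln, Fbn1, Fbn2, Fbln1, Fbln2, Fbln5 and Mfap5. A probe set was taken for a gene where the platform annotation gave that gene as its only symbol, which yielded 18 probe sets for 9 of the 10 genes, out of 18193 genes measured in the same way. Fbn1 is not analysed here. Each of Fn1, Tnc, Eln, Fbn2, Fbln2, Fbln5 and Mfap5 was read by 2 probe sets, Fbln1 by 3 and Postn by 1.

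RNA came from palates microdissected at E13.5 from mouse embryos of a mixed C57BL6/129 background and mixed gender. Palates lacking both Frizzled genes (Fz1-/-;Fz2-/-, 3 arrays, called double-null here) were set against palates lacking Fz1 alone (Fz1-/-;Fz2+/+, 3 arrays, called Fz1-null here). The Fz1 null genotype is therefore common to all 6 samples, and the question was what the further loss of Fz2, a receptor for Wnt ligands encoded by Fzd2, did to the palate, with no wild-type palate among the arrays. The arrays of each group carry the numbers 1, 2 and 3, and nothing in the labels ties an array to an embryo, a litter or a pool, so p-values cover only the spread between these samples, which may be technical.

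Elastic fibres are built in steps outside the cell. Fibrillins, encoded by Fbn1 and Fbn2, form microfibrils that small glycoproteins such as the product of Mfap5 decorate, and tropoelastin, encoded by Eln, is laid on them with the help of fibulins and cross-linked by lysyl oxidases. Fibronectin, tenascin-C and periostin are matrix glycoproteins that bind integrins on the cell surface, and fibronectin and tenascin-C are known constituents of the mesenchymal matrix of the growing palatal shelf. The levels below are log2 values from the robust multi-array average (RMA), differences are double-null minus Fz1-null on that log2 scale, and levels of different probe sets were not set against each other.

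Fzd2 served as the check of the genotype. Its brightest probe set read 10.21, 10.53 and 10.20 in double-null palates numbered 1 to 3, against 11.46, 11.60 and 11.64 in Fz1-null palates, a difference of -1.25 (SE 0.11; limma adjusted p = 0.217, and 0.00889 with the replicate number as a block). Every double-null array thus lay below every Fz1-null array. Arrays with the same number correlated at 0.997 over all probe sets and arrays of the same genotype at 0.991 to 0.994, so arrays of 1 number are treated as a pair where pair differences are given. The distance between the lower and upper quartile of an array ran from 2.76 to 2.91 in double-null and from 2.87 to 2.94 in Fz1-null arrays. For the labelled tissue, 9 genes of palatal mesenchyme were read, all of them measured. Their mean level ran from 9.70 to 9.89 in double-null and from 9.84 to 9.96 in Fz1-null arrays. Without another tissue beside them, these levels describe the palates and do not check the label. Osr2 among them, a transcription factor of the palatal shelf, read 8.75, 8.92 and 8.92 in double-null and 8.98, 8.96 and 9.46 in Fz1-null palates. The mean differences of the 9 genes ran from -0.37 for Msx1 to 0.31 for Meox2, and Osr1 was higher too, at 0.08.

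No member passed the test. With limma and Benjamini-Hochberg adjustment over all 45037 probe sets, 0 of the 18 member probe sets reached an adjusted p of 0.05 (0% of all probe sets did), and 0 did so with the replicate number as a block (0.00666% of all, which were the 3 probe sets of Fzd2). At an unadjusted p under 0.05, 0 of 18 were called without the block, against 0.957% of all probe sets. With the block 3 of 18 were, 1 each of Fn1, Tnc and Eln and all lower, against 4.71% of all. The adjusted p of every member probe set rounded to 1.00 without the block, and with it the values ran from 0.966 to 0.999. Differences were small throughout: the lowest was -0.21, the highest 0.13 and the median -0.06, beside a median of -0.004 over all probe sets.

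**Figure D1:**
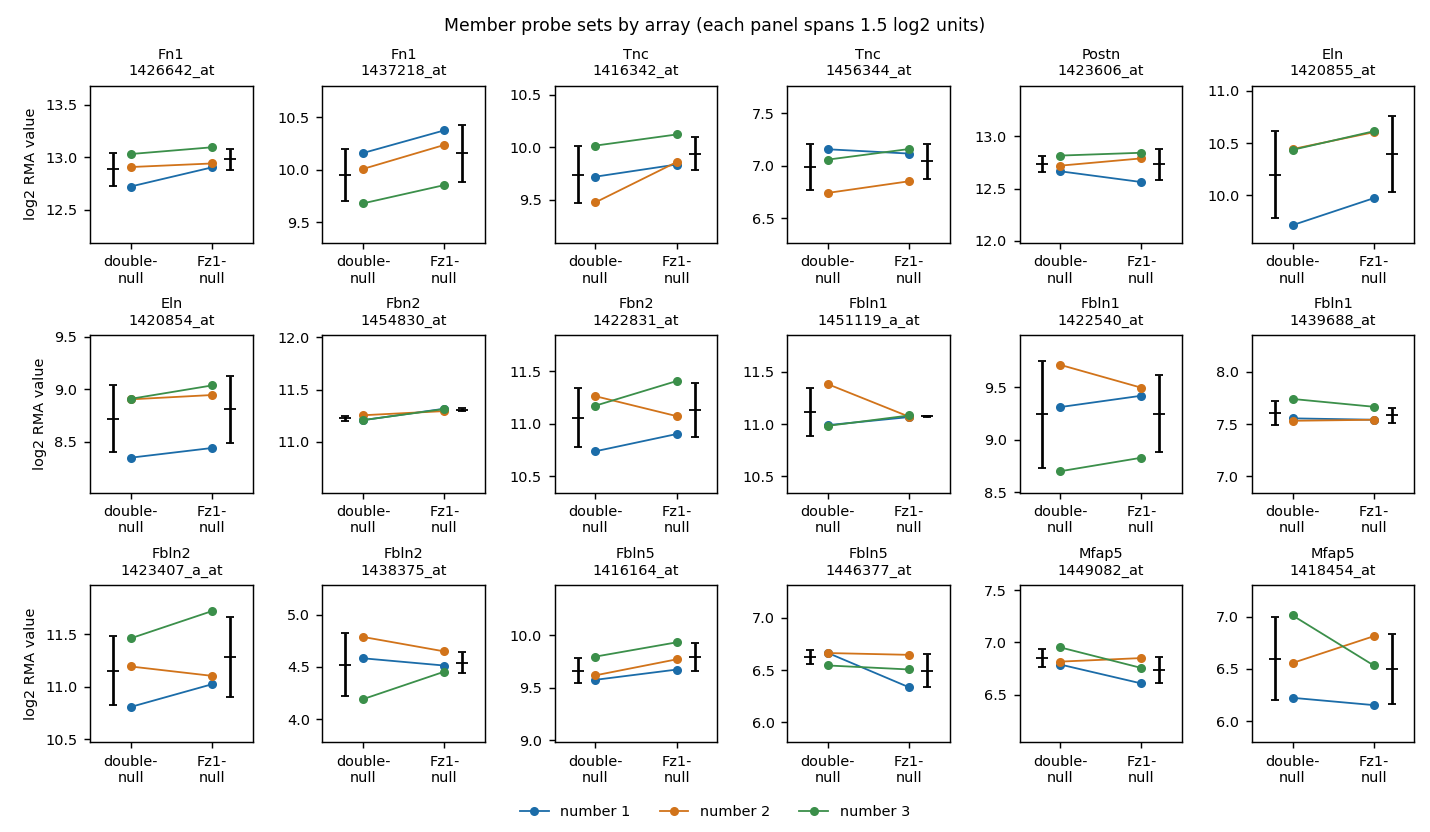
Log2 RMA value of the 18 member probe sets in each array, with double-null arrays on the left and Fz1-null arrays on the right of each panel; lines join arrays of the same number, and black bars give the group mean ± SD (n = 3). In most panels the lines of different numbers lie further apart than the 2 ends of a line.

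Among the adhesive glycoproteins, Fn1 and Tnc read lower in double-null palates and Postn did not differ on average. Fn1 encodes fibronectin, the glycoprotein that cells assemble into fibrils through integrins. Its brightest probe set (1426642_at) read 12.72, 12.91 and 13.03 in double-null palates 1 to 3, against 12.90, 12.94 and 13.10 in Fz1-null palates, a difference of -0.09 (SE 0.10, 95% interval -0.33 to 0.14). The double-null array was the lower one of each pair, while the groups overlapped. Without double-null array 1 the difference was -0.011, and -0.036 when Fz1-null array 3 was left out. The other Fn1 probe set (1437218_at) read 10.16, 10.01 and 9.68 in double-null and 10.38, 10.24 and 9.85 in Fz1-null palates, a difference of -0.21 (SE 0.17), with pair differences of -0.22, -0.23 and -0.17. It was -0.07 without double-null array 3 and -0.36 when Fz1-null array 3 was left out. Both thus agreed on the direction in every pair. They did not agree on how the arrays of 1 group ranked, since the arrays numbered 3 were the highest in the first probe set and the lowest in the second.

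Tnc encodes tenascin-C, a many-armed glycoprotein that modulates adhesion to fibronectin. Its brightest probe set (1416342_at) read 9.72, 9.47 and 10.02 in double-null palates, against 9.84, 9.86 and 10.12 in Fz1-null palates. That is a difference of -0.20 (SE 0.15), or 1.15-fold lower, with a 95% interval of -0.55 to 0.14 from the same fit. The pair numbered 2 carried the larger part, at -0.38 against -0.12 and -0.11 in the pairs numbered 1 and 3. Without double-null array 2 the difference was -0.07, and without double-null array 3 it was -0.34. The other Tnc probe set (1456344_at) read 7.16, 6.74 and 7.06 in double-null and 7.12, 6.85 and 7.16 in Fz1-null palates (-0.06, SE 0.13). There the pair numbered 1 lay on the other side, at 0.04.

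Postn encodes periostin, a matricellular protein of periosteum and other collagen-rich connective tissue. Its 1 probe set read 12.67, 12.72 and 12.82 in double-null palates and 12.56, 12.79 and 12.84 in Fz1-null palates. The mean difference was 0.002 (SE 0.10, 95% interval -0.22 to 0.23), with the pair numbered 1 higher and the other two lower. The sign turned when double-null array 3 (-0.04) or Fz1-null array 1 (-0.08) was left out.

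Of the elastic fibre core, Eln and Fbn2 read lower in double-null palates and Mfap5 higher, none past the threshold. Eln encodes tropoelastin, the soluble unit of elastin. Its brightest probe set (1420855_at) read 9.72, 10.44 and 10.44 in double-null palates, against 9.97, 10.60 and 10.61 in Fz1-null palates, a difference of -0.20 (SE 0.24, 95% interval -0.76 to 0.36). The pair differences of -0.26, -0.16 and -0.18 were close to each other. The arrays numbered 1 lay well below all others in both groups, and the SE was 0.06 with the number as a block. Without double-null array 1, which leaves its Fz1-null partner unmatched, the difference was 0.04. The dimmer Eln probe set (1420854_at) correlated with it at r = 0.985 over the 6 arrays, at 8.35, 8.90 and 8.91 in double-null and 8.44, 8.95 and 9.04 in Fz1-null palates (-0.09, SE 0.20). It became 0.10 without double-null array 1, and 0.03 when Fz1-null array 3 was left out.

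The low Eln values of the arrays numbered 1 had a parallel in the mean of cartilage genes. A weaker parallel lay in the mean of smooth muscle and pericyte genes, and single genes of both lists departed from it. The mean of 6 cartilage markers was 10.25, 11.13 and 11.20 in double-null palates 1 to 3 and 10.39, 11.10 and 11.18 in Fz1-null palates. Sox9 among them read 10.56, 10.75 and 10.16 in double-null and 10.65, 10.56 and 10.33 in Fz1-null palates. Genes of smooth muscle and pericytes, other sources of elastin, had means of 8.42, 8.58 and 8.60 in double-null and 8.34, 8.60 and 8.42 in Fz1-null palates. Within that list Rgs5 read 8.78, 9.91 and 9.34 in double-null and 8.81, 9.36 and 8.96 in Fz1-null palates. Acta2 read 10.78, 10.61 and 11.19 in double-null and 10.74, 10.68 and 10.68 in Fz1-null palates, so it did not share the low values. The mean of macrophage genes was also lowest in the arrays numbered 1, at 8.15 in each group. The part of these cell types in the Eln levels was not tested. In whole palates fewer cells of a type and less RNA per cell cannot be told apart.

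Fbn2 encodes fibrillin-2, the fibrillin that is prominent in embryonic microfibrils. Its brightest probe set (1454830_at) read 11.21, 11.26 and 11.21 in double-null palates, against 11.32, 11.29 and 11.31 in Fz1-null palates. It was the 1 member probe set whose groups did not overlap, with 1 of 18 lower and 0 of 18 higher, beside 1.73% and 2.79% of all probe sets. The difference was only -0.08 (SE 0.07, 1.06-fold lower), beside group SDs of 0.03 in double-null and 0.01 in Fz1-null palates (n = 3 each). The authors' deposited table gives this probe set an unadjusted p of 0.00774, and Benjamini-Hochberg adjustment of that table's p-values over all probe sets gave it 1.00. The other Fbn2 probe set (1422831_at) read 10.74, 11.26 and 11.17 in double-null and 10.90, 11.07 and 11.41 in Fz1-null palates (-0.07, SE 0.17). It was lower in the pairs numbered 1 and 3 and higher in the pair numbered 2, and its mean difference became 0.09 without double-null array 1, and 0.07 when Fz1-null array 3 was left out.

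Mfap5 encodes a small microfibril-associated glycoprotein that binds fibrillin. Its brighter probe set (1449082_at) read 6.79, 6.82 and 6.95 in double-null palates, against 6.61, 6.85 and 6.76 in Fz1-null palates (0.11, SE 0.09), and the difference was 0.05 without Fz1-null array 1. Its other probe set (1418454_at) read 6.22, 6.56 and 7.01 in double-null and 6.16, 6.81 and 6.53 in Fz1-null palates (0.10, SE 0.23). That difference turned to -0.11 without double-null array 3, to -0.08 without Fz1-null array 1 and to -0.09 without the pair numbered 3. Both were higher in the pairs numbered 1 and 3 and lower in the pair numbered 2. The pair numbered 3, where the second probe set differed by 0.48, was also the pair in which the means of skeletal muscle and epithelial markers differed by 0.78 and -0.58, and their part in this value was not tested.

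The fibulins split by gene and by pair. Fbln5, whose product tethers tropoelastin to microfibrils and is needed for elastic fibre formation in mice, was measured by a bright probe set (1416164_at) at 9.58, 9.62 and 9.80 in double-null palates, against 9.67, 9.77 and 9.93 in Fz1-null palates. It was lower in each pair by a similar amount (-0.10, -0.15 and -0.14; mean -0.13, SE 0.10), and its difference was -0.06 when Fz1-null array 3 was left out. Its dim probe set (1446377_at) read 6.66, 6.66 and 6.54 in double-null and 6.34, 6.64 and 6.51 in Fz1-null palates (0.13, SE 0.10), higher in each pair and by 0.03 without the pair numbered 1, so the probe sets of Fbln5 disagree in direction.

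Promoter sequences are given for Tnc and Fbln5, the members with a bright probe set lower in each pair for which the RefSeq table (GRCm38.p6) held a window. Both genes lie on the minus strand. Each sequence is the 250 bases before the outermost annotated start, 5′ to 3′ on the gene's strand, at chr4:64047016-64047265 for Tnc and at chr12:101819120-101819369 for Fbln5. Capitals mark TATAAA, on either strand.
Tnc: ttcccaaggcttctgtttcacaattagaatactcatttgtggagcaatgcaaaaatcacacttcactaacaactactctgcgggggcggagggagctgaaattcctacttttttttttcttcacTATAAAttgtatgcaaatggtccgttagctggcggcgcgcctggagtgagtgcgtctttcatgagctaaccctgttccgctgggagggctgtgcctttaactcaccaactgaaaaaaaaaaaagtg
Fbln5: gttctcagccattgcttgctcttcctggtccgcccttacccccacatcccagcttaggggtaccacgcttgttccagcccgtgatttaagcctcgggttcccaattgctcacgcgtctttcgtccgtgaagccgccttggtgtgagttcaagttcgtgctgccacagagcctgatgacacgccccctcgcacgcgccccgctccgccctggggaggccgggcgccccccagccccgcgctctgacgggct

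The windows were searched on both strands for TATAAA and for the core read by TCF/LEF, the transcription factors of Wnt/beta-catenin signalling, written as CTTTGAA or CTTTGAT or CTTTGTA or CTTTGTT. The table held 9 such windows for 5 measured members (Tnc, Postn, Fbln1, Fbln2 and Fbln5). None of the 9 held a TCF/LEF core, which 14.8% of all 32851 windows of this length did. TATAAA stood in 3 of the 9, 2 overlapping windows of Tnc and 1 of Postn, and in 12.4% of all. The bases G and C made up 44.8% of the Tnc window and 65.2% of the Fbln5 window, beside a median of 52.4% over all windows. These are matches of letters in a short stretch.

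Fbln1, a fibulin of mesenchyme that binds fibronectin, differed between pairs more than between genotypes. The brightest probe set (1451119_a_at) read 10.99, 11.38 and 10.98 in double-null palates and 11.07, 11.07 and 11.08 in Fz1-null palates (0.04, SE 0.12). The 3 Fz1-null arrays were nearly equal, and double-null array 2 stood above all 5 others; without it the difference was -0.09. The second probe set (1422540_at) read 9.31, 9.71 and 8.70 in double-null and 9.42, 9.50 and 8.83 in Fz1-null palates (-0.01, SE 0.27). It was highest in the arrays numbered 2 and lowest in those numbered 3 in both groups. The dimmest (1439688_at) read 7.55, 7.53 and 7.74 in double-null and 7.54, 7.54 and 7.67 in Fz1-null palates (0.03, SE 0.09).

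Fbln2, a fibulin that binds fibronectin and fibrillin, was read by a bright probe set (1423407_a_at) at 10.81, 11.19 and 11.46 in double-null palates, against 11.02, 11.10 and 11.72 in Fz1-null palates (-0.13, SE 0.22). It was lower in the pairs numbered 1 and 3 (-0.22 and -0.26) and higher in the pair numbered 2 (0.09). Without double-null array 1 the mean difference was 0.04 and without Fz1-null array 3 it was 0.09. The same pattern of signs was seen in both brighter probe sets of Fbln1 and in the second probe set of Fbn2. Its other probe set (1438375_at), near the bottom of the scale, read 4.58, 4.79 and 4.19 in double-null and 4.51, 4.65 and 4.45 in Fz1-null palates (-0.02, SE 0.15).

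**Figure D2:**
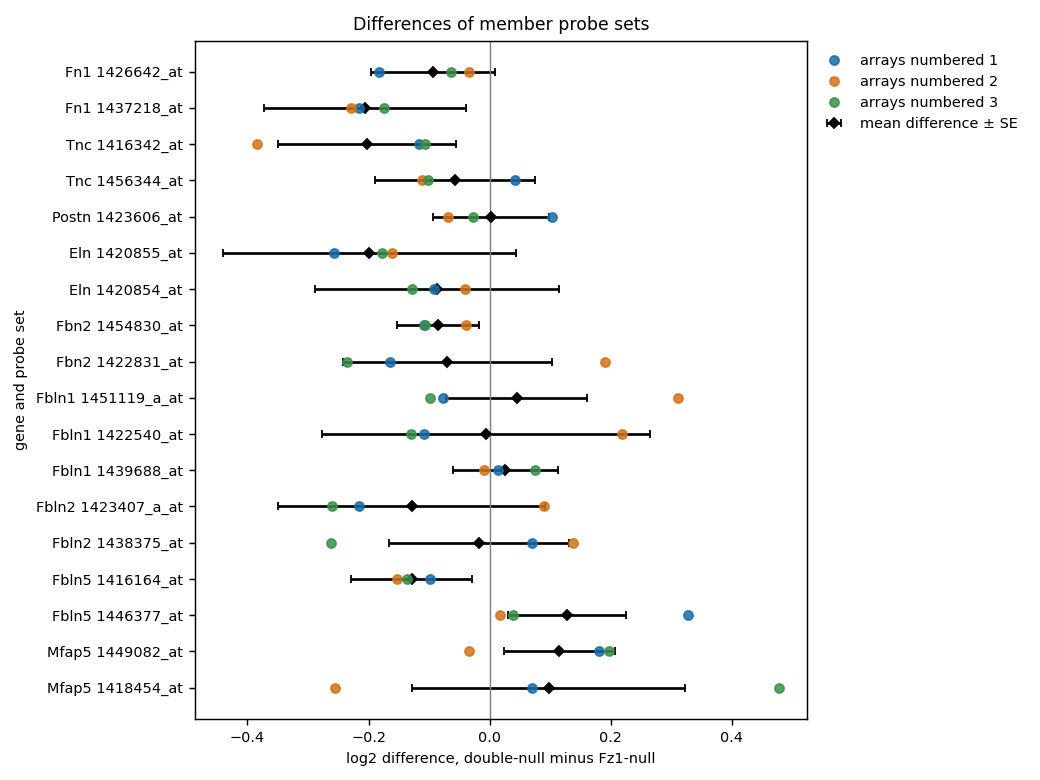
Log2 difference, double-null minus Fz1-null, for each member probe set; coloured points are the 3 pairs of arrays of the same number, and black diamonds with bars are the mean difference ± SE of the fit without the block. Both Fn1 and both Eln probe sets and the brightest of Tnc, Fbn2 and Fbln5 have all 3 points left of 0.

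By pairs, 7 of the 18 member probe sets were lower in all 3 pairs, 2 each of Fn1 and Eln and 1 each of Tnc, Fbn2 and Fbln5, beside 12.8% of all probe sets. A single one, the dim Fbln5 probe set, was higher in all 3, beside 11.6% of all. Counted by each gene's brightest probe set, 6 of 9 genes were lower and 3 higher, and 5 were lower in every pair. Over the brightest probe sets of all genes 54.3% were lower and 13.9% lower in every pair. The median difference of these 9 was -0.09, beside -0.01 over the brightest probe sets of all 18193 genes. These counts carry no test.

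These counts have to be read against brightness, because bright probe sets as a whole read lower in double-null palates. Of the 9440 probe sets with a mean above 9, 76.8% were lower, with a median of -0.03, and 20.6% were lower in all 3 pairs. Of the 11 member probe sets above 9 (a limit chosen after the values were seen), 9 were lower, with a median of -0.09, and 6 were lower in all 3 pairs. Fn1, Fbn2 and Fbln1 each gave more than 1 of these 11. Of the 7 member probe sets at or below 9, 3 were lower and 4 higher, with a median of 0.03, and 45.5% of all such probe sets were lower. When the deposited values were quantile normalised once more, the share of bright probe sets that were lower became 51.6% and the median -0.002, while 8 of the 11 bright members stayed lower with a median of -0.09. Lower in all 3 pairs were then 6 of 11, beside 11.7% of all bright probe sets. Over all 18 member probe sets the median became -0.05 and the number lower 11 in place of 12. With this step the brightest probe sets of Tnc, Eln and Fbln5 differed by -0.17, -0.16 and -0.10, and the second probe set of Fn1 by -0.17.

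**Figure D3:**
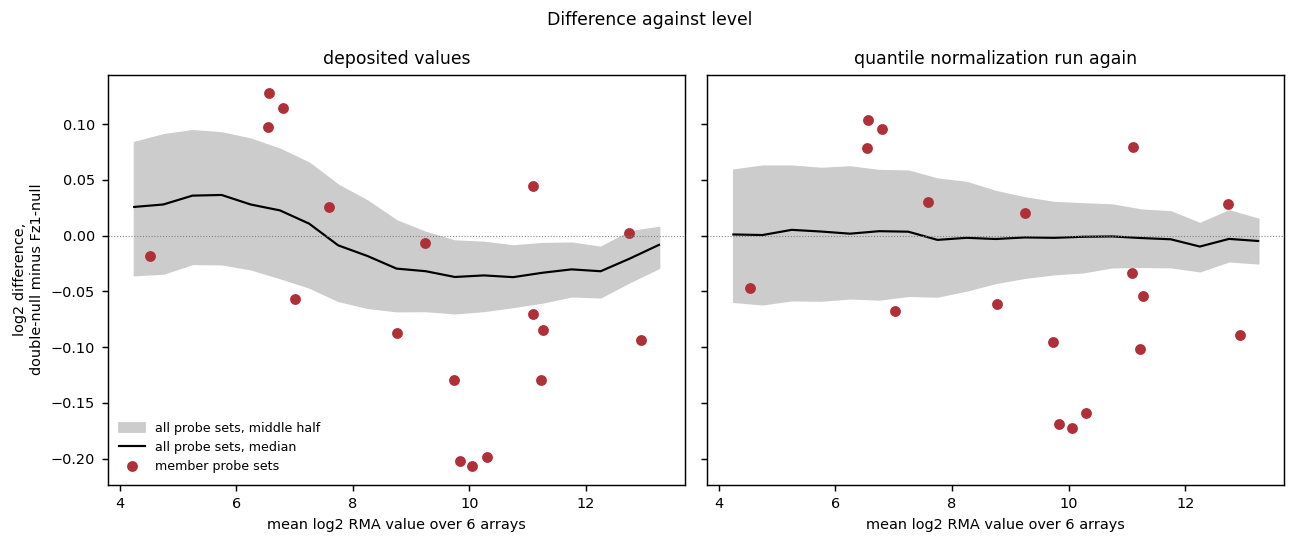
Log2 difference, double-null minus Fz1-null, against the mean log2 RMA value over 6 arrays, for the deposited values on the left and after a second quantile normalisation on the right; red points are the 18 member probe sets, the line is the median of all probe sets in bins of level and the grey band runs from their lower to their upper quartile. On the left the line lies below 0 for bright probe sets, and on the right it lies near 0.

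The spread between arrays of the same genotype was wider than the genotype difference for most members. Between the 3 Fz1-null arrays a probe set spanned 0.02 to 0.70 log2 units, with a median of 0.30, while the size of the genotype difference had a median of 0.09 and a maximum of 0.21. The span exceeded the difference in 16 of 18 probe sets, the exceptions being the brightest of Fbn2 and of Fbln1. This sets a range of single arrays against a difference of means. The same count was not made over all probe sets, so it does not set the members apart. The spread followed the array numbers: of 54 deviations of a double-null array from its group mean, 40 had the sign of the Fz1-null array of the same number, 15, 10 and 15 of 18 for the numbers 1, 2 and 3. Over all probe sets such deviations correlated at 0.63, 0.44 and 0.63 for these numbers, so this is not a trait of the members. The share of equal signs over all probe sets was not counted, and the deviations of 1 probe set are not independent. The span was above 0.60 in the bright Eln and Fbln2 probe sets and the second Mfap5 probe set, all lowest in the arrays numbered 1 of both groups. It was also above 0.60 in the second Fbln1 probe set, lowest in both arrays numbered 3.

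**Figure D4:**
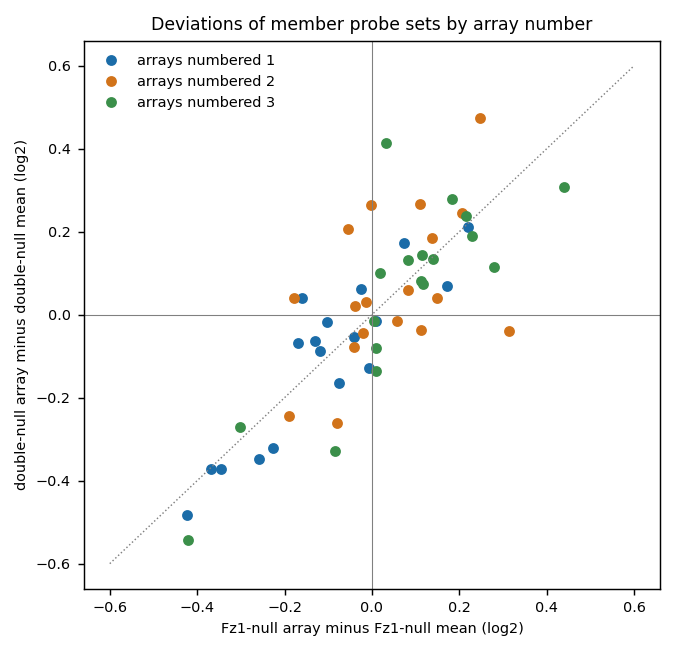
Deviation of each double-null array from the double-null mean against that of the Fz1-null array of the same number from the Fz1-null mean, in log2 units, for the 18 member probe sets; the dotted line marks equal deviations. Of the 54 points 40 lie in the lower left or upper right quadrant.

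Over the 6 arrays, which share a number in pairs, the members' brightest probe sets did not form a single profile. Fn1 was most like Fbln2 (Pearson r = 0.94, n = 6) and Fbln5 was most like Fn1 (r = 0.91). Tnc was most like Fbln5 (r = 0.86) and least like Fbln1 (r = -0.69). Fbn2 and Fbln1 had no member closer than r = 0.44 and r = 0.32. Among the brightest probe sets of 11400 other genes, the most similar was Adamts10 for Fn1 (r = 0.997), Sema3f for Eln (r = 0.995), Fgfr1 for Fbln2 (r = 0.999) and Clstn3 for Tnc (r = 0.990). For Postn it was Thrsp (r = 0.994), for Fbn2 Mlx (r = 0.988), for Fbln1 D17H6S56E-5 (r = 0.988), for Fbln5 Alpl (r = 0.995) and for Mfap5 Kcnip3 (r = 0.996). The highest of so many coefficients over 6 arrays is large by construction, and these are descriptions.

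Other genes of elastic fibre assembly, of the adhesive matrix and of its receptors were counted by their brightest probe set. Of 48 measured genes (100 probe sets) among 51 listed, 0 passed the adjusted threshold without or with the block. Elastic fibre assembly genes had 14 of 20 lower, with a median difference of -0.05 (-0.03 after the second quantile normalisation, 13 lower). Adhesive and matricellular genes had 7 of 17 lower, with a median of 0.02 (0.03 and 8 lower after the second normalisation). Receptor genes had 9 of 11 lower, with a median of -0.06 (-0.04 and 7 lower after the second normalisation). Over all 48 genes 30 were lower, beside 54.3% of all genes. In every pair 12 of 48 were lower and 7 higher, beside 13.9% and 11% of all genes. Of all probe sets with a mean above 9, 20.6% were lower in every pair. After the second normalisation Hmcn1, Mfap4, Ltbp1, Ltbp4, Npnt and Itgb5 stayed lower in every pair, and the rest of the 12 did not. Over the brightest probe sets of all 18193 genes, 2092 were then lower in every pair. Efemp2, Loxl2 and Spp1 are not analysed here.

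In the assembly list, the 4 genes with the smallest p were Adamtsl2 (0.13, SE 0.07), Hmcn1 (-0.14, SE 0.12), Mfap4 (-0.14, SE 0.14) and Adamts10 (-0.09, SE 0.10). Adamtsl2, which encodes a glycoprotein that binds fibrillin-1, read 8.22, 8.23 and 8.34 in double-null palates, against 8.11, 8.15 and 8.13 in Fz1-null palates. Its groups did not overlap, as for 2.79% of all probe sets in this direction. Hmcn1 encodes hemicentin-1, related to the fibulins, Mfap4 a microfibril-associated glycoprotein, and Adamts10 a protease that binds fibrillin. The last 3 were lower in all 3 pairs, as were 20.6% of all probe sets with a mean above 9, and in each the groups overlapped. After the second quantile normalisation Adamts10 (-0.05) was no longer lower in every pair, while Hmcn1 and Mfap4 were. Without double-null array 1 Adamts10 differed by -0.0026, and without double-null array 3 Mfap4 differed by -0.012 and Hmcn1 by -0.04.

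In the adhesive list, Npnt, encoding the integrin ligand nephronectin, read 9.93, 9.84 and 10.26 in double-null palates, against 10.14, 10.15 and 10.50 in Fz1-null palates (-0.25, SE 0.14). All 5 of its probe sets were lower. Thbs4, a thrombospondin of tendon and muscle attachment, read 7.50, 7.53 and 8.12 in double-null and 7.08, 7.44 and 7.66 in Fz1-null palates (0.32, SE 0.20), a difference that was 0.12 without double-null array 3. Sparcl1, an anti-adhesive glycoprotein, differed by 0.23 (SE 0.12) and Ecm1, extracellular matrix protein 1, by 0.17 (SE 0.11). Npnt, Thbs4 and Sparcl1 kept their direction in all 3 pairs, and Ecm1 did not. The adjusted p of each of these 4 was 1.00 without the block and 0.966 with it by limma.

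Among the receptors, Itgb8, the integrin subunit that with alpha v releases TGF-beta from its latent complex, read 8.18, 8.06 and 7.91 in double-null palates, against 7.85, 7.87 and 7.76 in Fz1-null palates (0.22, SE 0.09). Its groups did not overlap, and its limma adjusted p was 1.00, and 0.966 with the block. Itgb5, a partner of alpha v, differed by -0.13 (SE 0.08), Itga9, whose product is a receptor for tenascin-C, by -0.23 (SE 0.16), and Itga8, a receptor subunit for fibronectin and nephronectin, by -0.07 (SE 0.08). Itga9 was lower in the pairs numbered 1 and 3, higher in the pair numbered 2. Itga8 differed by -0.008 without the pair numbered 3.

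**Figure D5:**
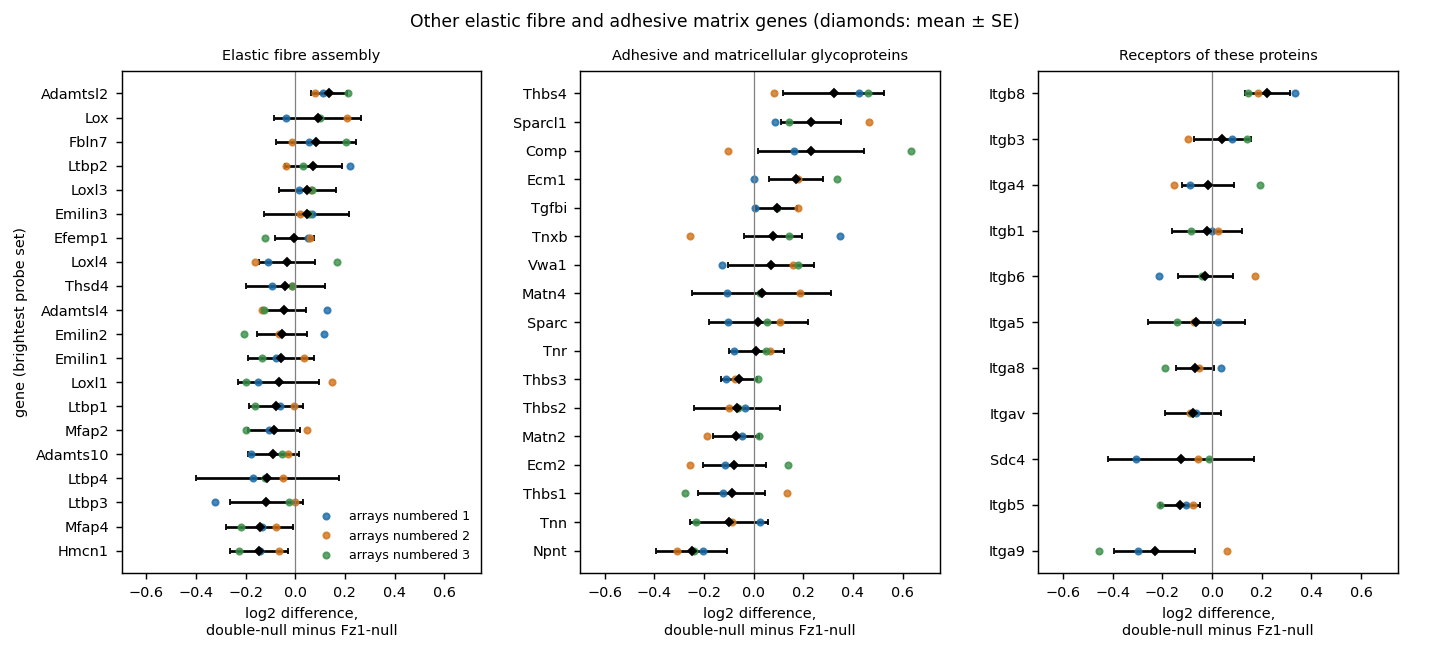
Log2 difference, double-null minus Fz1-null, of the brightest probe set of each of 48 other genes in 3 lists; coloured points are the 3 pairs of arrays of the same number, and diamonds with bars give the mean ± SE of the fit without the block. Thbs4 is highest and Npnt lowest among the means.

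Markers of cell types in the palate differed between pairs as well. Palatal mesenchyme genes (9 of 9 measured) differed by 0.04, -0.09 and -0.26 on average in the pairs numbered 1 to 3, epithelial genes (8 of 8) by 0.03, -0.16 and -0.58 and skeletal muscle genes (9 of 9) by -0.15, -0.26 and 0.78. Bone genes, 4 of 6 measured, differed by -0.35, -1.39 and -0.21. Most of this was Ibsp, a bone sialoprotein, at -1.20, -4.46 and -0.37, and without it the other 3 differed by -0.07, -0.37 and -0.16 (a split made after the values were seen). Endothelial genes (7 of 7) differed by -0.03, 0.22 and -0.01, macrophage genes (5 of 5) by 0.0004, 0.12 and 0.06 and glial genes (2 of 4) by -0.14, 0.21 and 0.23. Smooth muscle and pericyte genes (6 of 6) differed by 0.09, -0.02 and 0.18 and cartilage genes (6 of 6) by -0.14, 0.03 and 0.02. Neural genes (5 of 5) differed by -0.22, 0.03 and 0.07 and erythroid genes (3 of 4) by 0.19, 0.08 and 0.01. None of these marker genes passed the threshold, and the part of cell composition in the members' values was not tested. RNA integrity, read as the 3′ minus the 5′ probe set of the array's Gapdh control, ran from 0.02 to 0.15 in double-null and from -0.01 to 0.11 in Fz1-null arrays. The same measure on the Actb control ran from 0.18 to 0.39 in double-null and from 0.21 to 0.34 in Fz1-null arrays.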

How the data were processed

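Total RNA was labelled and hybridised to Affymetrix Mouse430_2 arrays. The value table was deposited by the authors as log2 values made with RMA, per the submitters' processing notes, with a version not given in the sources used here and no presence calls. Per the file headers, the authors' own comparison holds log2 fold changes, signed linear fold changes (taken as a score) and p-values without adjustment. Those log2 values equal the group differences used here with the sign turned (largest discrepancy 4.93e-08).

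From 45101 probe sets 64 controls were left out. Symbols came from the platform annotation, updated through Entrez identifiers to RefSeq (GRCm38.p6), with 34945 probe sets of 1 symbol, 932 of several and 9160 not listed. Across all 45037 probe sets limma 3.58.1 in R 4.3.3 (lmFit, eBayes) was fitted with genotype as the only term and Benjamini-Hochberg adjustment, threshold 0.05. Python 3.11.15 made the tables. The fits were run on simulated data with independent noise, no effect shared by array number and planted changes far larger than any member difference. That run therefore says nothing about differences as small as those of the members, or about the choice of the block. An exact permutation test of 3 against 3 arrays cannot give a p below 0.1.

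Deviations from group means correlated at 0.63, 0.44 and 0.63 between arrays numbered 1, 2 and 3, all above 0.1. Same-numbered arrays were therefore treated as pairs, on the data alone, and a second fit took the number as a replicate block. Alternatives were the block, a filter on dim probe sets, other moderation, 2 normalisations, weighted arrays, an offset of 32 on the linear scale, single arrays or pairs left out, and per-gene summaries. The members and lists were chosen with earlier results of these data known. All member probe sets are named, and the 4 genes of each other list with the smallest p in the main fit, by the brightest probe set. Similar genes are those with the highest r over 6 arrays among genes above the median level.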

Additional observations from a re-analysis of the deposited data

How the results depend on the processing

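No member probe set passed the threshold under any alternative run. For the 100 probe sets of the other lists, the alternatives were added after the data were seen. Of these 100, 0 passed with adjustment, and 2 had an unadjusted limma p under 0.05 without the block, beside 0.957% of all probe sets. With the block, the brightest probe sets of 5 of the 48 genes had an unadjusted limma p under 0.05, beside 4.71% of all probe sets. The 12 named genes of those lists kept their sign under the alternatives run, though leaving out arrays took Adamts10 as near to 0 as -0.0026, Itga8 to -0.0080 and Mfap4 to -0.012. Over all probe sets the count past the threshold was 0 in the main fit, 3 with the replicate block, 3 with the block and without the pair numbered 2 or 3, 93 with the block and without the pair numbered 1, and 431 at an unadjusted p under 0.05. The block alone changed no call of a member, and in this balanced design it leaves the differences and their directions as they are.

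The median over member probe sets, -0.063, became 0.039 without double-null array 1, -0.102 without double-null array 2, 0.014 without Fz1-null array 3 and -0.109 without the pair numbered 2, with or without the block. Leaving out 1 array unbalances the numbers. The span of the Fz1-null arrays exceeded the genotype difference in 16 of 18 member probe sets, a count not made over all probe sets. In all, 7 of the 18 kept their sign when each probe set was refitted, with ranges over arrays or pairs left out of -0.166 to -0.011 and -0.357 to -0.072 for Fn1 1426642_at and 1437218_at, -0.342 to -0.071 for Tnc 1416342_at, -0.108 to -0.073 for Fbn2 1454830_at, -0.196 to -0.059 and 0.028 to 0.203 for Fbln5 1416164_at and 1446377_at, and 0.050 to 0.189 for Mfap5 1449082_at. The mean of both Fbln5 probe sets, which differ in sign, was -0.00057. The others changed sign when an array or a pair was left out, with ranges of -0.152 to 0.065 for Tnc 1456344_at, -0.082 to 0.058 for Postn, -0.410 to 0.042 for Eln 1420855_at, -0.271 to 0.099 for Eln 1420854_at, -0.200 to 0.090 for Fbn2 1422831_at, -0.088 to 0.117 for Fbln1 1451119_a_at, -0.243 to 0.265 for Fbln1 1422540_at, -0.040 to 0.067 for Fbln1 1439688_at, -0.283 to 0.090 for Fbln2 1423407_a_at, -0.151 to 0.146 for Fbln2 1438375_at and -0.110 to 0.284 for Mfap5 1418454_at.

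With the block, leaving out the pair numbered 1 gave -0.048 for Postn and 0.045 for Fbln1 1422540_at, leaving out the pair numbered 2 gave -0.088 for Fbln1 1451119_a_at, and leaving out the pair numbered 3 gave 0.013 for Fbn2 1422831_at, 0.055 for Fbln1 1422540_at, 0.104 for Fbln2 1438375_at and -0.093 for Mfap5 1418454_at. With array weights Postn became -0.026, Fbln1 1422540_at 0.106, Fbln1 1439688_at -0.00025, Fbln2 1438375_at 0.038 and Mfap5 1418454_at -0.00024. The second quantile normalisation turned Fbln1 1422540_at to 0.021, and centring on array medians turned Postn to -0.0041. The cause of these turns was not tested. RMA values carry no call of presence, so the dim probe sets of Fbln2, Fbln5 and Mfap5 limit what their differences show, and the number of arrays limits the precision.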
